A study of Homo sapiens with 16 samples.

Results

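The 10 genes described here belong to the interstitial collagen matrix (of the 20121 to 27650 genes listed in the bulk tables) and were followed through human kidney organoids. They were chosen by name: COL1A1, COL1A2, COL3A1, COL5A1, COL5A2, COL6A1, COL6A2, COL6A3, COL14A1 and LOX, and each was listed in all 3 bulk tables and in both single-cell matrices. The organoids were grown from UM77-2, an established human embryonic stem cell line, so every library came from 1 line. Bulk RNA came from isolated spheroids. Set 1 held 1 library each at days 21, 25 and 29, and set 2 held 2 libraries at each of these days, with daily refeeding. A TNF set held 1 library each for vehicle control (VC, buffered saline) and for 5 ng/ml recombinant TNFα, at 24 h and at 48 h, all collected at day 25. Single-cell libraries (1 VC and 1 TNF, 24 h, day 24) came from dissociated whole wells. One further single-cell sample, a day 25 control, was not analysed here.

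Collagens I, III and V are fibrillar collagens. Their chains wind into triple helices that are secreted, trimmed and packed into the fibrils that give connective tissue its tensile strength. Collagen VI forms beaded microfilaments next to cells, collagen XIV binds to the surface of fibrils, and lysyl oxidase (LOX) starts the crosslinks that harden them. In the kidney these proteins are made mainly by interstitial fibroblasts and pericytes and build up in fibrosis, whereas the glomerular and tubular basement membranes rest on collagen IV.

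Recovered read totals were 25508651 to 29408687 in set 1, 19073609 to 30282025 in set 2 and 49948198 to 59246286 in the TNF set. The least counted member, LOX, had 125 to 606 reads per library. The VC single-cell library held 11906 cells with a median of 6358.5 UMIs (unique molecules) and the TNF library 23160 cells with a median of 2599, a difference in depth that touches each single-cell comparison below. The libraries shared 82 barcodes. Nothing in the labels says whether the set 2 libraries of a day came from separate cultures, so p-values measure the spread between these samples, which may be technical.

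Promoter sequence from RefSeq (GRCh38.p14) was matched for 4 of the 10 members, and the 150 bases before the start site are shown for the 2 whose window no annotated exon touched. Both genes rose with day, and any link of promoter motifs to that rise was not tested. Capitals mark a TATA box (TATAAA) or a GC box (GGGCGG), searched on both strands together with CCAAT and the AP-1 motif TGANTCA. The COL6A2 window lies at chr21:46097962-46098111, plus strand, and the COL5A1 window at chr9:134641653-134641802, plus strand.
COL6A2: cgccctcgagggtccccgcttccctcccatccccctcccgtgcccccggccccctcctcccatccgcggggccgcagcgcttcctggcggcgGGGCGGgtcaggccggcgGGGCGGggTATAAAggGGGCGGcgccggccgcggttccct
COL5A1: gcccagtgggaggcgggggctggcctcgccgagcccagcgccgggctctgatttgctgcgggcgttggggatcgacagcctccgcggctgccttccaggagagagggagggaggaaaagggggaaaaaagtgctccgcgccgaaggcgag
The COL6A2 window held 1 TATA box and 3 GC boxes, and the COL5A1 window held no match to any of the 4 motifs. Of 35116 promoter windows of this length, 6.71% held the TATA box, 36.8% the GC box, 23.5% CCAAT and 4.17% the AP-1 motif.

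Between day 21 and day 29, collagen transcripts became a larger part of the organoid RNA. In set 2, 9 of the 10 members were higher at day 29 than at day 21 and none was lower (limma, adjusted p under 0.05), where 10.0% of all 27650 genes were called higher and 8.33% lower. The members' median difference was 1.38 on the log2(CPM + 1) scale (CPM, a gene's reads scaled to a common library total), and the median over all genes was -0.02. Summed over the members, reads rose from 0.531% and 0.600% of the library at day 21 to 1.61% and 2.01% at day 29. In set 1, which has no replicates, all 10 members were higher at day 29 than at day 21, and the sum went from 0.821% to 2.14%. In such whole spheroids, fewer or more cells of a type and less or more RNA per cell cannot be told apart.

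Of the fibrillar chains, COL1A1, the main chain of collagen I, read 10.12 and 9.82 at day 21, 11.57 and 11.68 at day 25, and 11.96 and 12.35 at day 29 in set 2, all in log2(CPM + 1). The days did not overlap. The difference between day 29 and day 21 was 2.18 ± 0.18 (SE, n = 2 a day; adjusted p = 0.000244), a 4.55-fold rise, and set 1 gave 1.96. COL1A2, its partner chain, read 10.60 and 10.63 at day 21 and 11.78 and 12.11 at day 29, a smaller rise of 1.33 ± 0.15 (adjusted p = 0.000992). COL1A1 thus gained on COL1A2. Per kilobase of the reference transcript, COL1A1 stood at 0.490 and 0.614 of COL1A2 at day 21 and at 0.969 and 1.01 at day 29. In set 1 that ratio was 0.717 at day 21 and 1.09 at day 29. Scaled by all annotated exons instead, COL1A1 in set 2 lay below COL1A2 at day 21 (123 and 100 CPM per kilobase against 144 and 146). At day 29 it lay above COL1A2 (442 and 581 against 326 and 409). How the 2 chains compared at day 29 thus depended on the length used.

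COL3A1, the collagen of pliable connective tissue, read 10.85 and 10.57 at day 21 and 12.44 and 12.70 at day 29, with no overlap. It rose by 1.86 ± 0.18 (adjusted p = 0.000451). COL5A1, a chain of the collagen that starts fibril assembly, read 7.58 and 7.36 at day 21 and 9.29 and 9.72 at day 29. Its rise of 2.03 ± 0.14 (adjusted p = 0.000148) was larger than that of the other collagen V chain, COL5A2, which went from 7.52 and 7.47 to 8.59 and 8.93, by 1.26 ± 0.11 (adjusted p = 0.000293). The per-kilobase ratio of COL5A1 to COL5A2 was 0.751 and 0.841 at day 21 and 1.31 and 1.40 at day 29, so the order of the chains turned. Differences between members were not tested.

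The collagen VI chains, which assemble in equal number, did not move together. COL6A1 read 8.81 and 8.70 at day 21, 8.95 and 9.05 at day 25, and 8.87 and 9.10 at day 29. Its day 29 values lay just above those of day 21, and the difference of 0.23 ± 0.10 did not pass the test (adjusted p = 0.158). It passed when the first day 29 library was left out (adjusted p = 0.0365), and set 1 gave 0.65. COL6A2 went from 7.90 and 7.81 to 8.94 and 9.30, a rise of 1.27 ± 0.12 (adjusted p = 0.000369), and COL6A3, the long chain, from 8.51 and 8.16 to 9.71 and 9.82, a rise of 1.43 ± 0.12 (adjusted p = 0.000268). Per kilobase, COL6A1 stood at 1.54 and 1.53 of COL6A2 at day 21, at 1.04 and 1.10 at day 25, and at 0.783 and 0.710 at day 29. Set 1 ran the same way, from 1.10 at day 21 to 0.709 at day 29.

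COL14A1, the fibril-associated member, had the largest rise among the 10. It read 5.82 and 5.27 at day 21, 7.18 and 7.07 at day 25, and 8.08 and 8.43 at day 29, with no overlap between days. The difference was 2.71 ± 0.18 (adjusted p = 0.000114), a 6.54-fold rise, and set 1 gave 2.44. LOX was the least abundant, at 2.79 and 2.72 at day 21, 2.92 and 2.996 at day 25, and 3.76 and 3.91 at day 29. It rose by 1.08 ± 0.13 (adjusted p = 0.00110) in set 2 but differed by only 0.17 in set 1, where it fell to 3.41 at day 25.

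**Figure D1:**
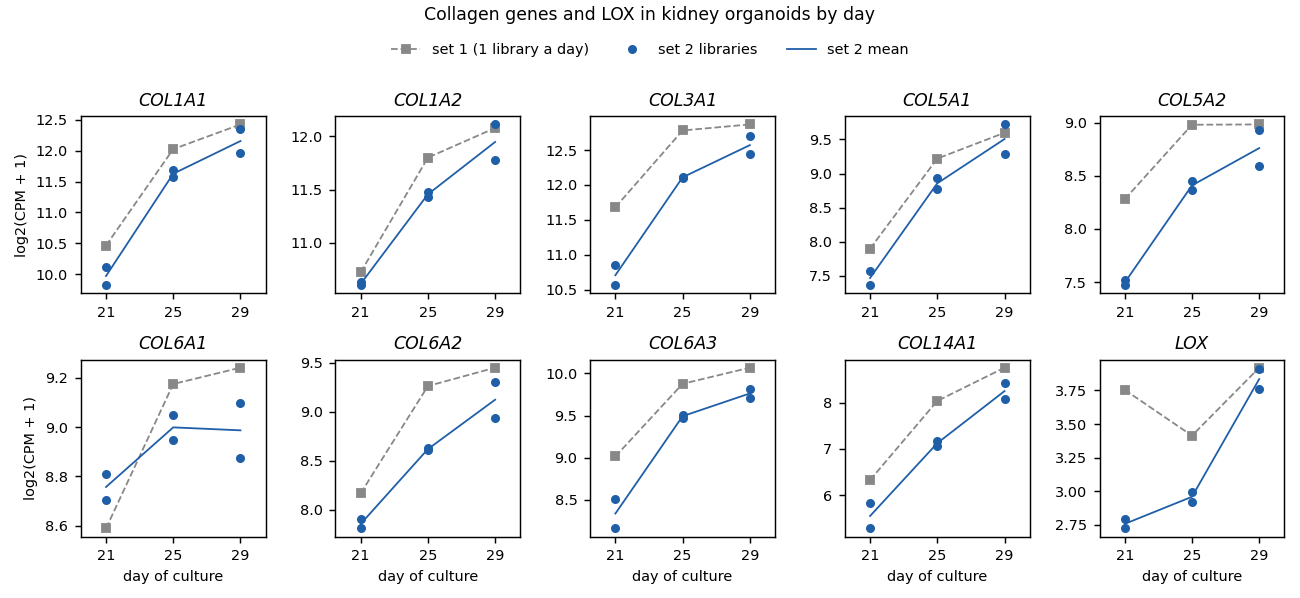
Level of each gene in log2(CPM + 1) against the day of culture. Squares joined by dashes are set 1 (1 library a day), circles are the 2 set 2 libraries and the solid line is their mean. Each panel has its own vertical range. Set 2 rises for every gene but COL6A1, which stays between 8.70 and 9.10.

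Most of the difference in the fibrillar chains was already present at day 25. Against day 21, 8 members were higher at day 25 and none lower in set 2, where 3.39% of all genes were called higher and 1.99% lower, with a median of 1.04 over the members. COL6A1 and LOX did not pass (adjusted p = 0.239 and 0.463). That count rests on few libraries: with any 1 day 21 or day 25 library left out, fewer members and fewer genes of all passed. Between day 25 and day 29 the median was 0.50, and COL14A1 (1.13 ± 0.18, adjusted p = 0.0262) and LOX (0.88 ± 0.13, adjusted p = 0.0229) were called, where 1.25% of all genes were higher and 0.825% lower. By count models on the recovered reads, 7 (edgeR) and 8 (DESeq2) members passed there. Of all genes these models called 1336 and 1278, against 574 in the limma fit. With a day 25 or day 29 library left out, the count moved for the members and over all genes alike. It is not read as a result about the members. The 3 comparisons share libraries and are not independent.

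Compared between genes per kilobase of reference transcript, the 3 chains of collagens I and III led on each day. At day 21 COL1A2 (309 ± 3.90 CPM per kb, SD, n = 2) and COL3A1 (306 ± 42.9) overlapped, ahead of COL1A1 (170 ± 24.9). At day 29 COL3A1 (1112 ± 145) lay above COL1A2 (783 ± 126) and COL1A1 (779 ± 150), and these 2 overlapped. COL14A1 (38.3 ± 6.46) and LOX (2.62 ± 0.201) were lowest at day 29, as at day 21.

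Markers of several cell types moved with the collagens in set 2. Of 10 stromal markers listed, 7 were higher at day 29 than at day 21 and none lower, with a median of 1.92 and a summed level of 546 and 623 CPM at day 21 and 1540 and 1881 CPM at day 29. Podocyte markers went the other way, with 6 of 9 lower, from 11398 and 11999 CPM to 7855 and 3702 CPM. Of the proximal tubule markers, 6 of 10 were lower and 1 was higher. Mural markers, of the pericytes and smooth muscle that also make collagen, were higher for 6 of 8 with none lower (median 1.48), as were 7 of 8 neuronal and 6 of 8 muscle markers. Set 1, with no test, had medians of 0.996 for stromal, 1.10 for mural, 1.57 for muscle and -1.40 for podocyte markers, but the neuronal markers went the other way there, with 7 of 8 lower at day 29 and a sum of 902 CPM at day 21 and 669 CPM at day 29. In set 2 the members' mean log2 level stood 3.90 and 3.93 above that of the stromal markers at day 21 and 3.46 and 3.41 above it at day 29. In set 1 that distance did not narrow, at 2.99 at day 21, 3.18 at day 25 and 3.19 at day 29. The part of these cell types in the collagen result was not tested.

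Other genes of collagen biology rose less evenly. Of 9 other fibril-associated collagens, 8 were higher at day 29 and none lower (median 1.54), led by COL12A1, which coats fibrils under tension (3.78 ± 0.26), COL21A1 (3.57 ± 0.16) and COL16A1 (2.36 ± 0.18). Of 6 other fibrillar chains, 1 was higher, COL11A1 (1.24 ± 0.11), and 2 were lower, COL24A1 (-1.06 ± 0.15) and the cartilage collagen COL2A1 (-0.94 ± 0.11). Of the 6 basement membrane collagen IV chains, COL4A4 (1.88 ± 0.14) and COL4A3 (1.63 ± 0.18), chains of the mature glomerular basement membrane, were higher and none was lower. Neither of 2 further collagen VI chains passed.

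Genes that process collagen inside the cell were split. Of 19 genes for hydroxylation, glycosylation and folding, 3 were higher and 4 lower. The lysyl hydroxylase PLOD2 (-0.96 ± 0.20) and the prolyl hydroxylase P3H2 (-0.76 ± 0.19) fell, and SERPINH1, the collagen chaperone, rose (0.62 ± 0.09). Of 12 listed genes for procollagen export and propeptide cleavage, 6 were higher and none lower, led by PCOLCE, which speeds propeptide removal (1.64 ± 0.13), the propeptide protease TLL2 (1.02 ± 0.16) and the export coat subunit SEC24D (0.74 ± 0.10). Among the 4 lysyl oxidase-like enzymes, LOXL2 (1.13 ± 0.12) and LOXL4 (1.06 ± 0.12) rose and LOXL3 (-0.65 ± 0.07) fell. Of 12 collagen receptors, 8 were higher and 1 lower, with ITGA11 (2.02 ± 0.16), DDR2 (1.30 ± 0.11) and ITGA1 (0.91 ± 0.12) ahead. Of 4 listed collagen-cleaving proteases, MMP2 was higher (1.77 ± 0.11).

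Over the 13 bulk libraries, each centred on its table's mean, the genes whose pattern was most like the members' mean were FBN1, the fibrillin of elastic microfibrils (Pearson r = 0.994), CYBRD1 (0.994), NFIX (0.993), C7 (0.991) and TSHZ2 (0.991), of 17417 genes compared. Among the members themselves r ran from 0.682 for LOX and 0.7996 for COL6A1 to 0.998 for COL5A1. Each member is part of that mean, which raises its own r. The libraries share days and tables, so these are descriptions.

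With TNFα, the fitted difference in the spheroids was above 0 for 8 of the 10 members and below 0 for COL14A1 and COL6A1. Over both times, 5 members were higher with TNF and 1 lower (limma with time and treatment as terms, adjusted p under 0.05), where 8.42% of all 21093 genes were higher and 10.8% lower. The members' median was 0.22 and that of all genes -0.03. With 1 library per time and treatment, the times stand in for replicates and a difference in response between times could not be tested. Summed over members, reads were 0.815% (VC) and 1.01% (TNF) of the library at 24 h, and 0.978% and 1.05% at 48 h.

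COL14A1 fell from 6.68 in VC to 6.05 with TNF at 24 h and from 6.75 to 6.42 at 48 h, in log2(CPM + 1). Both TNF libraries lay below both VC libraries. The fitted difference was -0.48 ± 0.07 (adjusted p = 0.000108). LOX went the other way, from 2.98 to 3.57 at 24 h and from 2.96 to 3.49 at 48 h, by 0.55 ± 0.11 (adjusted p = 0.00117), a 1.47-fold rise with no overlap.

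COL6A3 went from 8.92 to 9.42 and from 9.17 to 9.39 (0.36 ± 0.07, adjusted p = 0.00116). COL1A1 went from 10.33 to 10.73 and from 10.55 to 10.75 (0.30 ± 0.07, adjusted p = 0.00603). COL5A1 (0.28 ± 0.06, adjusted p = 0.00280) and COL1A2 (0.27 ± 0.07, adjusted p = 0.0150) were also called. Without a mean-variance trend, COL1A1, COL1A2 and COL5A1 no longer passed (adjusted p = 0.0658, 0.0817 and 0.0641), and COL1A2 did not when libraries were centred on their median (0.0541).

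COL3A1 (0.32 at 24 h and 0.01 at 48 h), COL5A2 (0.22 and 0.07) and COL6A2 (0.31 and 0.05) did not pass. For every member, called or not, the difference was larger in size at 24 h than at 48 h. COL6A1 read 9.41 and 9.43 in VC and 9.35 and 9.38 with TNF, a fitted difference of -0.05 ± 0.06 (adjusted p = 0.624).

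**Figure D2:**
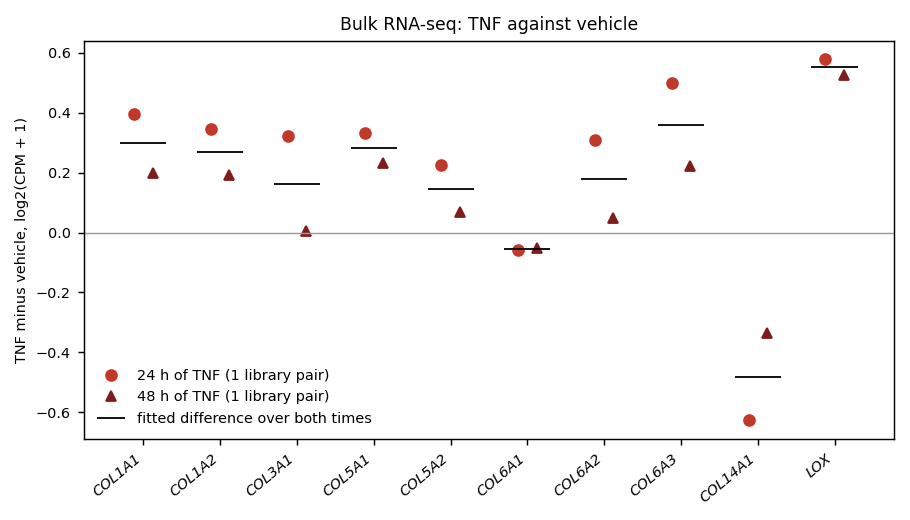
TNF minus VC in log2(CPM + 1) for each gene. Circles are the library pair at 24 h, triangles the pair at 48 h, and bars the fitted difference over both times. COL14A1 lies below 0 at both times and LOX above 0.5 at both.

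Podocyte and proximal tubule markers fell in the same libraries, but distal or early nephron markers did not as a set. Of 9 listed, 1 was higher and 2 lower with TNF. Their sum was 1231 and 1323 CPM in VC and 1238 and 1534 CPM with TNF. All 9 podocyte markers and 9 of 10 proximal tubule markers were lower with TNF, with summed podocyte levels of 7142 and 6637 CPM in VC and 4362 and 3234 CPM with TNF. Of 10 stromal markers, 4 were higher and 3 lower, and their sum was 954 and 1103 CPM in VC against 1064 and 1071 CPM with TNF. Of 8 mural markers, 6 were higher. Their part in the collagen result was not tested.

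Crosslinking enzymes other than LOX were also higher. Of the 4 lysyl oxidase-like enzymes, 3 were higher with TNF and none lower (median 1.03). LOXL4 went from 3.59 to 5.14 at 24 h and from 4.19 to 5.23 at 48 h (1.30 ± 0.11, adjusted p = 6.84e-08), and LOXL2 by 1.28 ± 0.07 (adjusted p = 6.33e-10). Of 9 other fibril-associated collagens, 6 were higher and 1 lower. COL22A1, a collagen of tissue junctions, read 5.04 and 4.97 in VC and 7.75 and 7.65 with TNF, a rise of 2.69 ± 0.06 (adjusted p = 7.84e-15), where the largest among the members was 0.55 for LOX. COL9A1 rose by 1.55 ± 0.08.

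Of 6 other fibrillar chains, 3 were higher and none lower, COL11A2 (1.34 ± 0.09) and COL27A1 (0.70 ± 0.06) the most. Collagen IV was split, with COL4A1 higher (0.61 ± 0.06), COL4A4 lower (-0.66 ± 0.09), and 2 of 6 chains in each direction. Of 18 listed hydroxylation and folding genes, 3 were higher, P4HA1 (0.33 ± 0.07) and PLOD1 (0.28 ± 0.06) among them, and none lower. Of 12 export and cleavage genes, 4 were higher, with the proteases TLL1 (0.87 ± 0.14) and TLL2 (0.75 ± 0.12) ahead, and 1 lower. Of 12 receptors, 3 were higher, including DDR2 (0.50 ± 0.07) and ITGA1 (0.28 ± 0.06), and 1 was lower. MMP2 fell (-0.25 ± 0.07) and no other of the 4 listed proteases passed.

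In single cells the collagens were led by 1 class. Cells were clustered without the members and the other collagen pathway genes, and classes were named from marker genes. The stromal-like class carried 8 of 11 stromal markers and also 4 mural markers. It held 2553 stromal-like cells of 11906 in VC (21.4%) and 4165 of 23160 with TNF (17.98%). Stromal-like cells held 49.9% of the members' UMIs in VC (exact binomial interval 49.7 to 50.1%) and 35.9% with TNF (35.7 to 36.1%). With 1 library per condition there is no test, and intervals cover counting error only. Doublets were kept. Scrublet's automatic threshold called 0 doublets in VC and 6876 with TNF and was not used. Calling the highest scores at a fixed rate instead marked 1190 and 4291 cells, and without these the shares were 55.5% and 37.9%.

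In VC, stromal-like cells had the highest level of 8 of the 10 members. COL1A1 stood at 2279 CPM of the class, COL3A1 at 2192 and COL1A2 at 1324, and COL14A1 at 131. Next for COL1A1 and COL3A1 were proliferating-like cells, at 933 and 887 CPM, and for COL1A2 the unnamed cluster 11 at 640. Proximal tubule-like cells held 105 CPM of COL1A1 and neuronal-like cells 124. A UMI of COL1A1 was seen in 97.1% of stromal-like and in 26.4% of neuronal-like cells, a class that should lack it, at median depths of 4835 and 6287 UMIs. The part of free RNA and mixed droplets in that second share was not tested.

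COL5A2 was the clear exception. Schwann or glial-like cells, the support cells of nerves, held 309 CPM in VC against 210 in stromal-like cells, 147% of the stromal-like level, whereas their COL3A1 was 3.85% of it. In the TNF library the same class held 211 CPM against 123. LOX, at 3.69 CPM in stromal-like cells, was highest in the unnamed cluster 8 (9.53 CPM) and in proliferating-like cells (8.56). Cluster 8 was led by SPOCK3 and MYF6 and kept its lead with TNF, at 8.17 CPM against 3.26.

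COL6A1 was spread more evenly than its partner chains. It stood at 292 CPM in stromal-like cells and at 146 in proximal tubule-like cells, which is 50.1% of the stromal-like level, while COL6A3 went from 269 to 14.2. Neuronal-like cells held 34.2% of the stromal-like COL6A1 level, against a median of 7.45% over the members. In podocyte-like cells of the VC library COL1A2 (362 CPM) was above COL1A1 (251). Their COL1A1 to COL1A2 UMI ratio was 0.693 (0.664 to 0.723), where stromal-like cells had 1.72 (1.69 to 1.75). It was lower still in neural progenitor-like cells (0.365) and cluster 8 (0.546). In the TNF library the podocyte-like ratio was 1.001 (0.972 to 1.03) and the stromal-like ratio 1.47.

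**Figure D3:**
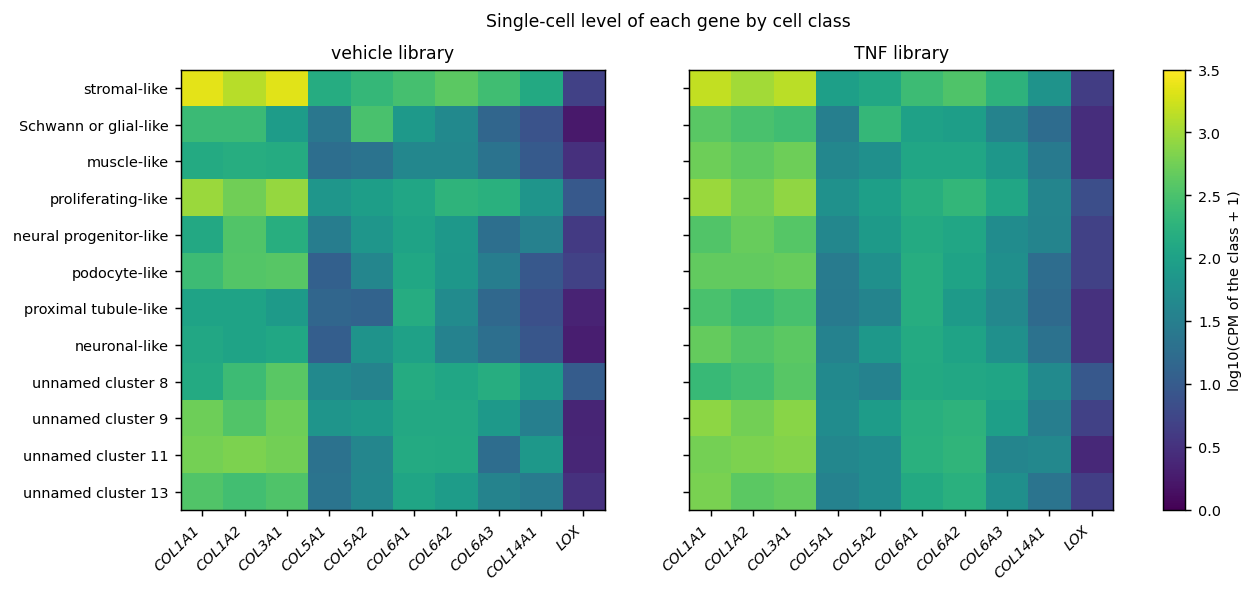
Level of each gene by cell class in the VC library (left) and the TNF library (right), as log10 of CPM summed over the class plus 1. Stromal-like cells lead for collagens I and III, and COL5A2 is highest in Schwann or glial-like cells in both libraries.

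With TNF, each member was lower in stromal-like cells than in VC. The ratio of TNF to VC was 0.474 for COL14A1 (exact interval 0.438 to 0.513), 0.584 for COL5A2, 0.626 for COL5A1, 0.627 for COL3A1, 0.663 for COL1A1, 0.671 for COL6A3, 0.777 for COL1A2, 0.820 for COL6A2 and 0.853 for COL6A1. LOX, at 0.883, had an interval across 1 (0.586 to 1.33), and it was 1.04 without called doublets. COL14A1 was thus the lowest of the 10 here and the member that fell in bulk. The stromal markers fell in the same cells, DCN to 0.727, PDGFRA to 0.457 and OGN to 0.195 of VC, while LOXL4 stood at 2.02 and COL22A1 at 4.21.

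In most other classes the ratio was above 1. COL1A1 stood at 3.79 in neuronal-like, 2.999 in proximal tubule-like and 1.82 in podocyte-like cells, and COL14A1 at 2.60, 2.44 and 2.04. But COL14A1 was also lower with TNF in proliferating-like cells (0.575) and the unnamed clusters 8 (0.581) and 11 (0.580), with intervals clear of 1. In the unnamed clusters 13 (0.780) and 9 (0.967) its interval ran across 1. COL5A2 was lower in Schwann or glial-like cells (0.681, 0.634 to 0.732), the class where it was highest, while the other members stood above 1 there. In proliferating-like cells COL6A3 (0.709), COL5A1 (0.850) and COL3A1 (0.928) were lower, and COL6A1 (1.31), COL6A2 (1.09) and COL1A2 (1.05) higher. In cluster 8 COL6A3 (0.751) was lower, and COL1A1 (1.67) and COL1A2 (1.10) higher. Over the members, the median level in neuronal-like cells was 7.45% of the stromal-like level in VC and 33.3% with TNF, and in proximal tubule-like cells 6.87% and 24.2%. A UMI of COL1A1 was seen in 66.7% of neuronal-like cells with TNF although the median depth was 2473.5 UMIs, under that of VC. The part of free RNA, doublets and depth in these ratios was not tested. Summed over all cells, COL1A1 was 538 CPM in VC and 654 with TNF, and COL14A1 was 39.1 and 29.6, the same directions as in bulk. COL5A2 (91.0 and 76.6) and COL6A1 (141 and 160) went against their bulk differences (0.15 and -0.05), which did not pass. The other members went the same way as in bulk.

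**Figure D4:**
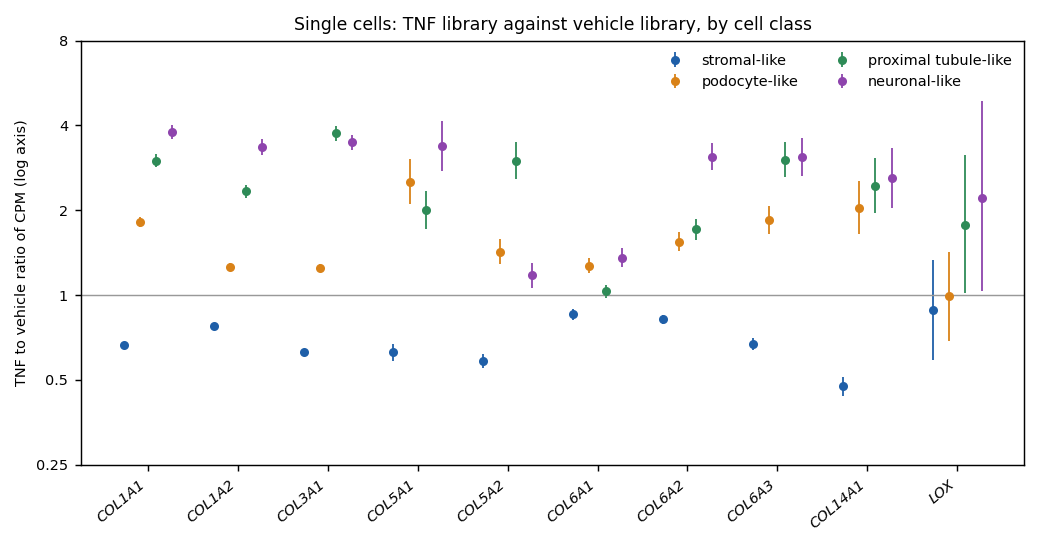
Ratio of TNF to VC level (CPM of the class, log axis) for each gene in 4 cell classes, with exact intervals from counts only. Stromal-like points lie under 1 for all 10 genes, and COL1A1 reaches 3.79 in neuronal-like cells.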

How the data were processed

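Spheroid RNA and dissociated cells were sequenced. The submitters' processing notes name STAR 2.7.8a, HTSeq 0.11 and limma with GRCh38 for bulk, and Cell Ranger 2.1.1 with hg19 and hg38 for single cells. The deposited bulk values are log2 expression, found from the values to be log2(CPM + 1) with 0.5 reads added by the authors. Whole reads were recovered for 100% of values (within 0.01 of a read). The deposited single-cell matrices hold UMI counts.

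Genes were fitted with limma 3.58.1 (trend, all deposited genes, Benjamini-Hochberg): day in set 2, time and treatment in the TNF set. Alternatives used edgeR 4.0.16 and DESeq2 1.42.0 on recovered reads, other filters and scalings, and each replicate left out. Fits were tested on simulated data. Cells with over 500 genes were aligned across libraries (a Harmony-type correction), clustered (Leiden, resolution 0.25, 30 components, 20 neighbours) without the 87 member and pathway genes, and named from at least 3 markers. Levels per kb used GENCODE 44 reference transcripts. Named genes of each list were the 3 (days) or 2 (TNF) largest called changes with the same direction in set 1 or at both times, and the 5 genes most like the members' mean. Members and lists were chosen with earlier results of these data known.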

Additional observations from a re-analysis of the deposited data

Results flagged for a closer look

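Between the VC and TNF single-cell libraries, 8 members were lower in stromal-like cells but higher in podocyte-like, proximal tubule-like and neuronal-like cells, with intervals clear of 1. In stromal-like cells the TNF to VC ratio was 0.663 for COL1A1, 0.777 for COL1A2, 0.627 for COL3A1, 0.626 for COL5A1, 0.584 for COL5A2, 0.820 for COL6A2, 0.671 for COL6A3 and 0.474 for COL14A1. In the other 3 classes it ran up to 3.79 for COL1A1 and 3.75 for COL3A1. With 1 library per condition the difference between classes was not tested, and the libraries differed in depth.

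LOX was lower at day 25 than at day 21 in set 1, by -0.34 on the log2 scale, and higher in set 2, by 0.20, in every pair of libraries. That difference between sets was not tested, and set 1 has 1 library a day.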

How the results depend on the processing

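Day 29 against day 21 gave 9 or 10 members called under all 13 alternatives, and set 1 gave 9 or 10 higher. Day 25 against day 21 gave 8 under every other model, scaling and filter. Genes called of all were 1486 as reported and ran from 1007 (no trend) to 2252 (libraries centred). Fewer members and fewer genes passed with a day 21 or day 25 library left out. Day 29 against day 25 depended on the processing: 2 members as reported (574 genes called of all), 7 by edgeR (1336) and 8 by DESeq2 (1278). It gave 4 with libraries centred (1233), the added 1 taken off (859) or a mean of at least 1 CPM (1128). Without the trend it gave 1 (209). With a day 25 or day 29 library left out, the count moved for the members and over all genes alike. The COL6A1 difference between these days turned from -0.01 to 0.0016 (edgeR) and 0.010 (DESeq2). It ran from -0.12 to 0.10 with a replicate left out, being above 0 without the second day 25 library (0.04) or the first day 29 library. The TNF set gave 6 as reported (4061 genes called of all), 9 by edgeR (4455) and 3 without the trend (3197). The Org number as a replicate block gave 9 (6056 genes called of all), 8 (2091) and 3 (1118) members for the 3 day comparisons. Each first library's deviation from its day's mean was correlated over genes between days, giving 0.141, 0.0756 and 0.268. The numbers were therefore not taken as pairs. The stromal-like share of member UMIs was 55.5% (VC) and 37.9% (TNF) without called doublets, and in TNF 36.3% with over 1000 genes per cell and 28.5% without alignment. The stromal-like LOX ratio turned to 1.04 without doublets. The cause of these shifts was not tested. Depth limits LOX, with 303 and 299 UMIs in the single-cell libraries.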
